A study of Homo sapiens with 4 samples.

Results

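The transporters described here are 10 carriers that move amino acids across the plasma membrane, namely SLC7A11, SLC7A5, SLC3A2, SLC7A1, SLC1A4, SLC1A5, SLC38A1, SLC38A2, SLC6A9 and SLC43A1. They were chosen by name, with earlier results of these data known. Every gene probe on the array that carries one of these names was taken, which gave 13 of 34127 probes and 10 of 27274 gene names. The RNA came from LNCaP and PC3, both established human prostate cancer cell lines, and was read on Agilent arrays of 1 colour. LNCaP depends on androgen, whereas PC3 does not. Each line was measured once untreated (control) and once after 24 h in medium with 10 µM atorvastatin (ATO), a statin that blocks HMG-CoA reductase in the cholesterol pathway. Each of the 4 groups therefore holds 1 array and no replicate, the labels name no vehicle for the controls, and the position of an array on its slide cannot be told apart from its group. The question was how each line changes its uptake genes under ATO and how the lines differ before it.

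Amino acid carriers work as exchangers, as sodium-driven importers or as simple facilitators. SLC3A2 (CD98, 4F2hc) is a heavy chain that brings light chains to the cell surface, among them SLC7A5 (LAT1), which takes up leucine and other large neutral amino acids in exchange for glutamine, and SLC7A11 (xCT), which takes up cystine in exchange for glutamate and so feeds glutathione synthesis. SLC7A1 (CAT1) carries arginine and lysine. SLC1A4 (ASCT1) and SLC1A5 (ASCT2) exchange small neutral amino acids, SLC38A1 (SNAT1) and SLC38A2 (SNAT2) import glutamine and alanine with sodium, and SLC6A9 (GLYT1) imports glycine. SLC43A1 (LAT3) is a facilitator for leucine and related amino acids and was first described as a gene overexpressed in prostate cancer. Many of these genes are known targets of ATF4, a transcription factor made when the translation factor eIF2 alpha is phosphorylated, as in amino acid shortage or endoplasmic reticulum stress.

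All 13 probes had 1 spot, carried no outlier call and were well above background on all 4 arrays, so every transporter had a measured value in every group. Intensities are given in units of the scanner, ± the error that the scanner software estimated for that spot, and they are not scaled between arrays. Ratios are differences of log2 intensity after the 75th percentile of each array was set to the same value, ± the standard error (SE) that follows from the spot errors. For the brighter probes the software's error was a nearly fixed share of the intensity, so that the SE of their ratios was close to 0.20. These errors are estimates for 1 spot and do not cover the spread between cultures. Probes printed in several copies had a median SD of 0.09 to 0.10 on the log2 scale within an array. Between 48.5% and 52.9% of the gene spots of an array were well above background, and 0 were saturated. The line markers sat on the side of their labels: LNCaP control exceeded PC3 control at least 1499-fold in the LNCaP marker KLK3, and all 4 PC3 markers were higher in PC3 control, CAV1 at least 382-fold. Each array was made from the RNA of a whole culture, in which fewer expressing cells and less RNA per cell cannot be told apart.

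**Figure D1:**
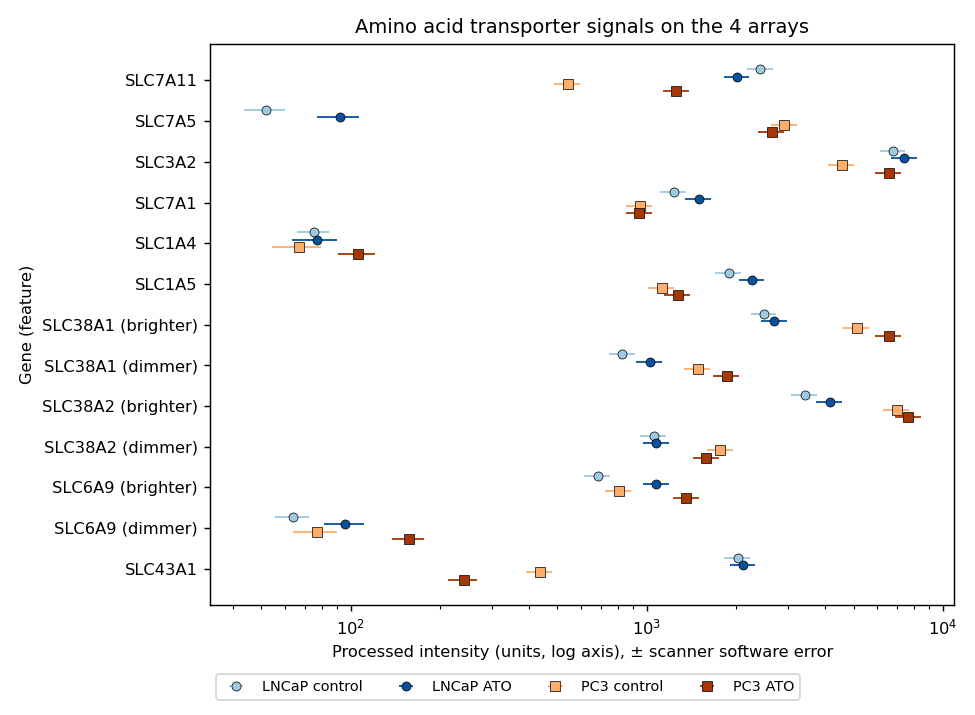
Processed intensity (units, log axis) of the 13 transporter probes on the 4 arrays, with bars for the scanner software's error of each spot. SLC7A5 lies between 51.9 and 92.2 units in LNCaP and at 2652 or more units in PC3, whereas SLC43A1 and SLC7A11 are brighter in LNCaP. Levels of different probes cannot be compared with each other.

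Before treatment the lines differed most in the levels of carriers of leucine and cystine. SLC7A5 was 47.5-fold higher in PC3 than in LNCaP, SLC43A1 5.53-fold lower and SLC7A11 5.30-fold lower. The other 7 transporters differed by less than 2-fold between the control arrays. With 1 array per line there is no replicate check of these differences.

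SLC7A5 (probe at chr16:86421408-86421467, minus strand, hg18) gave 51.9 ± 8.17 units in untreated and 92.2 ± 14.9 in ATO-treated LNCaP, against 2920 ± 292 in untreated and 2652 ± 265 in ATO-treated PC3. Both PC3 arrays lay far above both LNCaP arrays, with a control log2 ratio of 5.57 ± 0.27, higher than that of 99.6% of the 11775 genes measured in both controls. SLC43A1 (chr11:57008877-57008936, minus strand) gave 2035 ± 204 units without and 2120 ± 212 with ATO in LNCaP, and 436 ± 45.1 without and 241 ± 26.8 with ATO in PC3. Here the order of the lines was the opposite, with a control log2 ratio of -2.47 ± 0.21 (PC3 minus LNCaP), lower than 97.8% of genes. The lines thus held opposite levels of these leucine carriers, LAT1 high and LAT3 low in PC3, and LAT1 low and LAT3 high in LNCaP. SLC7A11 (chr4:139304883-139304942, minus strand) gave 2420 ± 242 and 2023 ± 203 units in LNCaP without and with ATO, and 541 ± 55.6 and 1261 ± 128 units in PC3. Its control log2 ratio was -2.40 ± 0.21, lower than 97.6% of genes.

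SLC3A2 (chr11:62409265-62409324, plus strand), the heavy chain that both SLC7A5 and SLC7A11 need, was far less uneven than its partners, at 6799 ± 680 units in LNCaP control and 4558 ± 456 in PC3 control (log2 ratio -0.82 ± 0.20). SLC1A5 (chr19:51970739-51970798, minus strand) gave 1894 ± 189 units in LNCaP control and 1126 ± 113 in PC3 control, which put it just inside 2-fold (1.99-fold lower in PC3, log2 ratio -0.99 ± 0.20). The sodium-coupled glutamine importers did not pass 2-fold. The brighter SLC38A1 probe gave 2493 and 2699 units in LNCaP without and with ATO, and 5123 and 6572 in PC3. The brighter SLC38A2 probe gave 3425 and 4151 units in LNCaP, and 7005 and 7654 in PC3, so that for both genes the PC3 arrays were the brighter ones. SLC38A1 had a log2 ratio of 0.80 ± 0.20 by its brighter probe and 0.60 ± 0.20 by the dimmer one, and SLC38A2 0.79 ± 0.20 and 0.50 ± 0.20. SLC7A1 was at -0.62 ± 0.20. SLC1A4 (-0.41 ± 0.32) and SLC6A9 (-0.01 ± 0.21) had ratios near 0 whose sign changed with scaling: SLC1A4 with the spike-in probes, SLC6A9 with the spike-in probes, quantile normalization and cyclic loess.

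In all, 3 of the 10 transporters differed at least 2-fold between the controls, 1 higher and 2 lower in PC3. Over all 15237 genes with a value, 20.6% were higher and 19.0% lower by that limit. The share of the transporters past 2-fold was thus no larger than that of all genes. Scaling moved the split, to 1 higher in PC3 against 5 lower by the 50th percentile and to 3 higher against 2 lower by spike-in probes or cyclic loess, while the median over all genes moved from -0.05 to -0.49 by the 50th percentile and to 0.33 by spike-in probes. The shares of all genes past 2-fold under these other scalings were not counted. SLC7A5, SLC43A1 and SLC7A11 were past 2-fold under all 7 scalings.

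**Figure D2:**
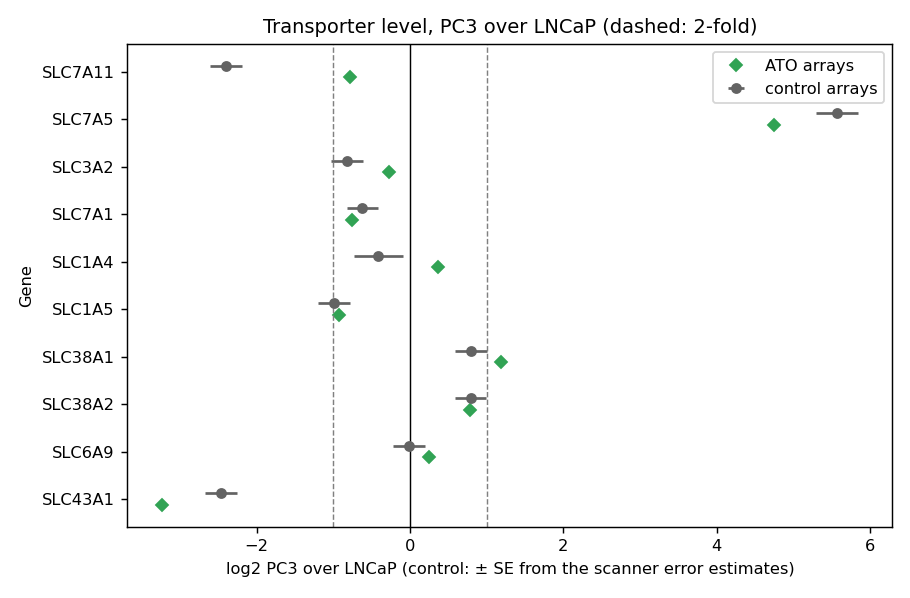
The log2 ratio of PC3 over LNCaP for each transporter (brightest probe), on the control arrays (grey circles, bars are SE from the spot errors) and the ATO arrays (green diamonds). SLC7A5 stands at 5.57 and 4.75, SLC43A1 at -2.47 and -3.23, and SLC7A11 at -2.40 and -0.78.

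In PC3, ATO was followed by higher signals of the cystine, glycine and neutral amino acid exchange carriers SLC7A11, SLC6A9 and SLC1A4 and by a lower signal of the leucine facilitator SLC43A1. These 4 of 10 transporters were past 1.5-fold, 3 higher and 1 lower, whereas 8.20% of the 13815 genes with a value were higher and 10.3% lower. The median log2 ratio of the 10 was 0.32, against -0.01 over all genes. Of the 10, 8 were above 0, where 6783 of the 13815 genes were. SLC7A11 had the largest ratio at 1.27 ± 0.21 (2.41-fold), above 99.1% of the 12513 genes measured on both PC3 arrays. Only SLC7A11 was past 2-fold among the brightest probes, and the share of all genes past 2-fold in PC3 was not counted.

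SLC7A11, which takes up cystine, went from 541 to 1261 units in PC3 as given above. By normexp, which subtracts the local background of each spot and here adds an offset of 50 units, the log2 ratio was 0.66, still past 1.5-fold. The parts of the background and of the offset in normexp values were not told apart. Around the spot, 28.4% of 102 neighbouring probes were past 1.5-fold in PC3, against 13.2% to 17.3% around the other transporter probes. Over all genes 8.20% were higher and 10.3% lower by that limit. The part of this region in the result was not tested, while the local background at the spot was not bright on either PC3 array. With the median ratio of those neighbours subtracted the value was 1.31.

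SLC6A9, the glycine importer, was measured by 2 probes that moved alike. The brighter one (chr1:44234749-44234808, minus strand) gave 686 ± 68.8 and 1078 ± 108 units in LNCaP without and with ATO, and 805 ± 81.2 and 1363 ± 137 in PC3. The dimmer one, whose coordinates span 148 bases of the genome (chr1:44239086-44239233) where the other probes span 60, gave 64.0 ± 8.57, 96.1 ± 14.6, 77.1 ± 12.9 and 158 ± 19.5 units in the same order. In PC3 the log2 ratios were 0.81 ± 0.21 and 1.08 ± 0.30. In both lines and by both probes the ATO array was the brighter one.

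SLC1A4 (chr2:65103539-65103598, plus strand), an exchanger of alanine, serine and cysteine, was dim on every array, at 75.05 ± 9.35 and 76.9 ± 13.4 units in LNCaP without and with ATO, and 66.8 ± 12.4 and 106 ± 15.4 in PC3. The PC3 log2 ratio of 0.71 ± 0.34 was 1.64-fold, and it was under 1.5-fold by normexp (0.36) and spike-in scaling. SLC43A1 was the only transporter past 1.5-fold downwards, from 436 to 241 units (log2 ratio -0.81 ± 0.22, 1.75-fold lower), and it stayed past that limit under all 7 scalings. Its PC3 ratio was lower than that of 96.4% of genes. In LNCaP, where this gene was brighter, its log2 ratio was -0.04 ± 0.20, with a sign that turned under spike-in scaling.

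The remaining 6 transporters were within 1.5-fold in PC3. SLC3A2 was just inside, going from 4558 ± 456 to 6571 ± 657 units (1.49-fold, log2 ratio 0.58 ± 0.20), and was past 1.5-fold under 3 of 7 scalings. SLC38A1 had log2 ratios of 0.41 ± 0.20 (chr12:44863328-44863387, minus strand) and 0.38 ± 0.20 (chr12:44868274-44868333), so that its probes moved alike. SLC38A2 gave 0.18 ± 0.20 by the brighter probe (chr12:45038977-45039036, minus strand) and -0.11 ± 0.20 by the dimmer one (chr12:45040892-45040951), which differ in sign but each lie within their SE of 0. SLC1A5 went from 1126 ± 113 to 1272 ± 128 units (0.22 ± 0.21), with a bright local background at its PC3 ATO spot (2.35 times the array median). SLC7A1 (chr13:28982093-28982152, minus strand) was at 0.04 ± 0.21 and SLC7A5 at -0.09 ± 0.20, and these signs turned under spike-in scaling and the 50th percentile respectively.

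**Figure D3:**
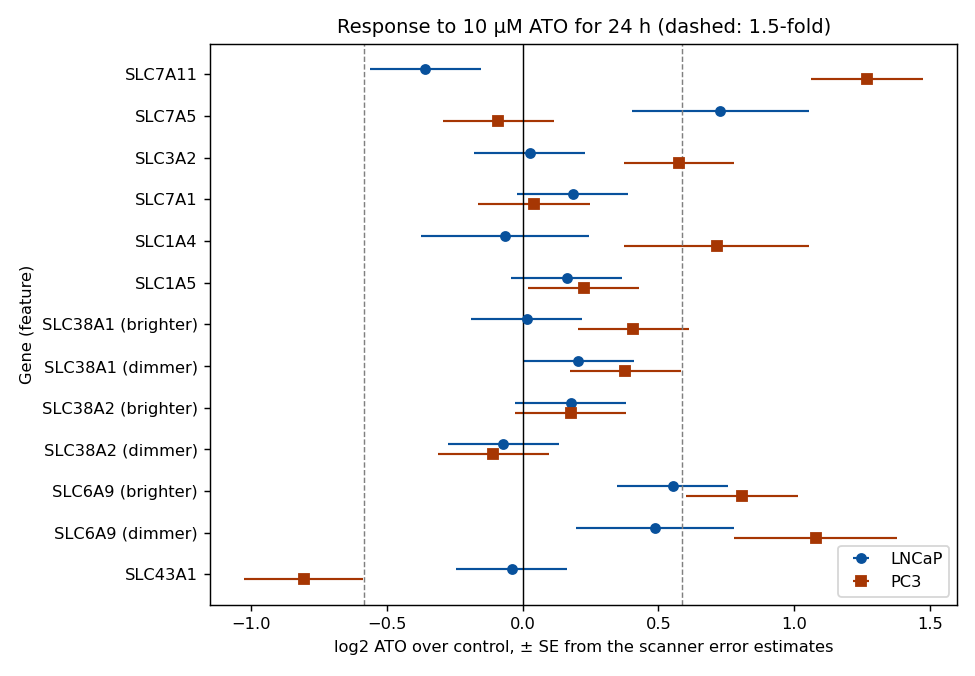
The log2 ratio of ATO over control for the 13 transporter probes in LNCaP (blue circles) and PC3 (brown squares), with SE from the spot errors and dashed lines at 1.5-fold. In PC3, SLC7A11 (1.27) is the highest and SLC43A1 (-0.81) the lowest of the brightest probes, and in LNCaP only SLC7A5 (0.73) lies past a dashed line.

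Stretches of promoter are shown because ATF4 acts with C/EBP partners at a short element, and the transporters that were higher in PC3 can be set beside it. RefSeq promoter windows (GRCh38.p14, 250 bases before to 50 bases after a gene start) were found for 9 of the 10 transporters, all but SLC7A11, 16 windows in all, since several have more than 1 start. They were searched on both strands for TGATGNAA, the core of the C/EBP-ATF response element. It was present in 5 of the 16 windows, each of a different gene, and in 3.62% of all 35116 windows. In the lines below the capitals mark the match, and each stretch is written 5′ to 3′ on the strand of the gene, so that a match on the other strand appears as its reverse complement.
SLC1A4, chr2:64989381-64989410, plus strand: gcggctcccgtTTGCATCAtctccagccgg
SLC1A5, chr19:46784893-46784922, minus strand: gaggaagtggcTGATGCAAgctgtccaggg
SLC3A2, chr11:62881719-62881748, plus strand: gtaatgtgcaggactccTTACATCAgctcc
SLC38A1, chr12:46266502-46266531, minus strand: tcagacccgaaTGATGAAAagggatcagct
SLC7A1, chr13:29595663-29595692, minus strand: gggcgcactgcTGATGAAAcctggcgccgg

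SLC1A4 and SLC1A5 held the same letters, on opposite strands, beginning 7 bases before a start in SLC1A4 and 97 bases before a start in SLC1A5. In SLC1A5 this was the start farthest along the gene, and its other windows held no match. SLC1A4, SLC3A2 and SLC38A1 also had windows without a match. The matches in SLC3A2 and SLC7A1 lay after a start, beginning 37 and 7 bases past it. SLC38A1 and SLC7A1 also shared their 8 letters. The PC3 log2 ratios of these 5 genes, in the order listed, were 0.71, 0.22, 0.58, 0.41 and 0.04, whereas SLC6A9 (0.81), SLC38A2 (0.18), SLC7A5 (-0.09) and SLC43A1 (-0.81) had no match in their windows. Of the transporters past 1.5-fold upwards in PC3, SLC1A4 held a match and SLC6A9 did not. A match is a description of letters and not a site of binding.

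In LNCaP the same transporters were nearly level under ATO. The median log2 ratio was 0.09, against 0 over all genes. Of the 10, 7 were above 0, where 6672 of the 13739 genes with a value were. Only SLC7A5 was past 1.5-fold, 1 of 10 against 2.77% of 13739 genes with a value that were higher by that limit, and 0 transporters were lower by it, against 1.99%. SLC6A9 came next at 1.47-fold.

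SLC7A5, the leucine exchanger, stood at a log2 ratio of 0.73 ± 0.33 in LNCaP (1.66-fold), at signals close to background, as given above. The ratio was 0.21 by normexp, and the local background at its LNCaP ATO spot was 1.55 times the array median. The part of this background in the result was not tested. SLC6A9 gave 0.55 ± 0.20 and 0.49 ± 0.29 by its brighter and dimmer probes, above 98.0% of the 12236 genes measured on both LNCaP arrays by the former. SLC7A11 stood at -0.36 ± 0.20 (1.28-fold lower), with the same sign under all 7 scalings. Its LNCaP ATO spot had a local background 2.74 times the array median. Of its 108 neighbouring probes 32.4% were past 1.5-fold in LNCaP, against 0.37% to 6.23% around the other transporter probes. Over all genes 2.77% were higher and 1.99% lower by that limit. The part of the background and of this region in the SLC7A11 value was not tested.

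The other LNCaP ratios were small. SLC7A1, the arginine carrier, went from 1234 ± 124 to 1503 ± 151 units (0.18 ± 0.20), while in PC3 it gave 950 ± 95.6 and 945 ± 95.2. SLC1A5 went from 1894 ± 189 to 2273 ± 228 units (0.16 ± 0.20). SLC38A2 was at 0.18 ± 0.20 and -0.07 ± 0.20 by its brighter and dimmer probes, and SLC38A1 at 0.01 ± 0.20 and 0.21 ± 0.20, the former changing sign with the 50th percentile and normexp. SLC3A2 went from 6799 ± 680 to 7421 ± 742 units, a log2 ratio of 0.03 ± 0.20 after scaling. SLC1A4 was at -0.07 ± 0.31, with a sign that changed under spike-in scaling and cyclic loess.

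**Figure D4:**
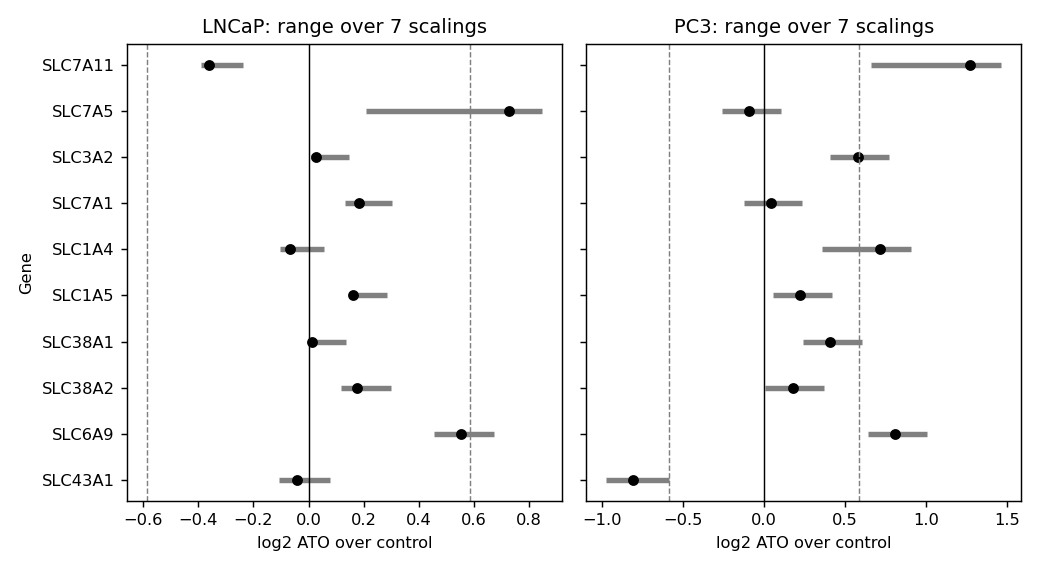
The log2 ratio of ATO over control for each transporter (brightest probe) in LNCaP and PC3, where the black dot is the value with the 75th percentile and the grey bar is the range over 7 scalings. SLC7A5 in LNCaP ranges from 0.21 to 0.85 and SLC7A11 in PC3 from 0.66 to 1.46, and SLC6A9 in PC3 stays above the dashed line at 1.5-fold.

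Set side by side, the responses of the lines were farthest apart for SLC7A11, with a PC3 minus LNCaP difference of 1.63 ± 0.29 on the log2 scale. The gap between the lines in this cystine carrier was 5.30-fold in the controls and 1.71-fold on the ATO arrays, with LNCaP higher in both. These values use the SLC7A11 spot on the LNCaP ATO array, where the local background was 2.74 times the array median. By normexp the SLC7A11 log2 ratios were -0.39 in LNCaP and 0.66 in PC3. SLC7A5 (-0.82 ± 0.38) and SLC1A4 (0.78 ± 0.46) came next, the former resting on dim spots in LNCaP and the latter on dim spots in both lines. For SLC43A1 the difference of responses was -0.77 ± 0.30, and LNCaP was 5.53-fold higher in the controls and 9.40-fold higher on the ATO arrays. SLC3A2 differed by 0.55 ± 0.29. SLC38A2 stood at 0.18 in both lines, and the responses of SLC1A5 differed by 0.06 ± 0.29. None of these differences has a test, since each line gave 1 ratio.

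With the lines taken as replicates of the treatment, limma with cell line as a block tested 11902 genes, and 0 transporters and 0 genes (0%) passed a Benjamini-Hochberg adjusted p of 0.05. Without adjustment, 1 of 10 transporters, SLC6A9, and 532 genes (4.47%) were under 0.05 by limma. SLC6A9 had a mean log2 ratio of 0.68 and was higher in both lines (adjusted p 0.762 by limma). The adjusted p of the other 9 lay between 0.762 and 0.822. The fit had 1 residual degree of freedom.

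Genes known to act with these carriers were read from lists that were written with earlier results of these data known. Their shares past a limit are set beside those of all genes as a description and were not tested. In the list of ATF4 and the amino acid response, 12 of 23 genes with a value were past 1.5-fold in PC3, all 12 higher, with a median log2 ratio of 0.58, where 8.20% of all genes were higher. In LNCaP 2 of 24 were, both higher, with a median of 0.22, where 2.77% of all genes were higher. ATF4 itself went from 11513 to 16701 units in PC3, at the limit of 1.5-fold, and from 19616 to 27903 units in LNCaP (1.33-fold). The largest PC3 ratios were those of DDIT4 (2.23), an inhibitor of mTORC1 signalling, DDIT3 (1.90), the factor CHOP, and CHAC1 (1.77), which breaks down glutathione. DDIT4 had a bright local background at 1 or more of its 10 spots. TRIB3 (1.15), a pseudokinase of this response, and ASNS (0.88), asparagine synthetase, were also higher. In LNCaP the corresponding values were 0.66 for DDIT4, 0.54 for DDIT3, 0.62 for CHAC1, 0.30 for TRIB3 and 0.33 for ASNS. Not all of the list rose in PC3, where 4 of the 23 genes lay below 0, among them ATF5 (-0.50). The serine synthesis genes PHGDH (-0.06), PSAT1 (0.08) and PSPH (0.07) were near level in PC3.

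In the cystine, glutathione and NRF2 list, 2 of 13 genes were past 1.5-fold in PC3 and 0 of 13 in LNCaP. Over all genes 8.20% were higher and 10.3% lower in PC3, and 2.77% higher and 1.99% lower in LNCaP. With 13 genes in the list, a difference from these shares was not tested. The 2 in PC3 were CBS (0.98), an enzyme that leads from homocysteine towards cysteine, and HMOX1 (1.08), heme oxygenase, both higher. HMOX1 had a bright local background at 1 or more of its 10 spots. The median was 0.15 in PC3 and 0.03 in LNCaP, against -0.01 and 0 over all genes. The probe for NFE2L2, the gene of NRF2, was not well above background on any array.

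Of genes that use or sense amino acids, 5 of 21 were past 1.5-fold in PC3, 2 higher and 3 lower, close to the shares over all genes (8.20% and 10.3%). ARG2 (1.25), arginase, and RRAGC (0.64), a GTPase that signals amino acids to mTORC1, were higher, both in bright local backgrounds. MYC (-0.93), a transcription factor known to drive glutamine uptake genes, went from 5059 to 2569 units, SHMT1 (-0.63), which interconverts serine and glycine, was lower, and BCAT1, which handles branched-chain amino acids, was at least 1.64-fold lower, in a bright local background. In LNCaP 1 of 21 was past the limit, GLS2, a glutaminase, which was at least 5.67-fold lower (1.99% of all genes were lower). MYC was at 0.03 in LNCaP. KLK3, the gene of prostate-specific antigen, had an LNCaP log2 ratio of -0.11, and its PC3 spots were not well above background.

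**Figure D5:**
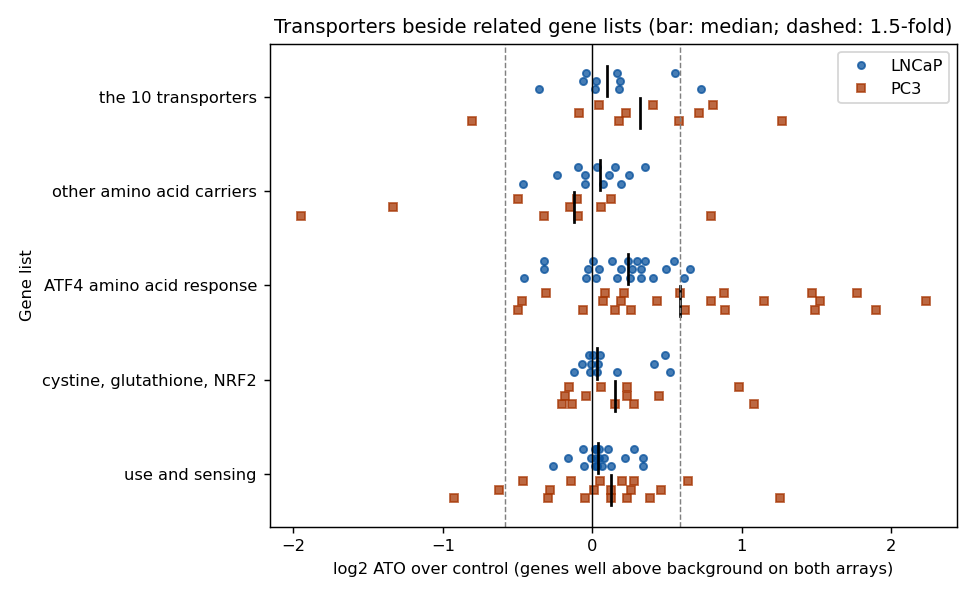
The log2 ratio of ATO over control in LNCaP (blue circles) and PC3 (brown squares) for the 10 transporters and for 4 lists of related genes, with genes well above background on both arrays shown and a bar at the median of the points. Many PC3 points of the ATF4 amino acid response list lie past the dashed line at 1.5-fold (12 higher), while the other amino acid carriers spread to both sides of 0.

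Another 26 carriers of the plasma membrane, or of amino acid sensing, were on the array. In PC3, 10 had a value, 1 higher and 2 lower past 1.5-fold, with a median of -0.13, where 8.20% of all genes were higher and 10.3% lower. SLC1A1 (0.80), a carrier of glutamate and cysteine, was higher. SLC1A3 (-1.95), which takes up glutamate, went from 325 to 81.4 units, and SLC7A2 (-1.33), a relative of SLC7A1 that carries arginine, from 254 to 97.2. In LNCaP 1 of 13 was past the limit, SLC7A9, at least 4.18-fold higher at a spot with a bright local background, where 2.77% of all genes were higher, and the median was 0.07. The median of the 10 transporters lay above that of these carriers in PC3 (0.32 against -0.13) and beside it in LNCaP (0.09 against 0.07).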

How the data were processed

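The 4 scanner files hold linear intensity values, 1 per spot, made by the authors in Agilent Feature Extraction 9.5.3.1: a fitted background was subtracted, a multiplicative trend removed, and a surrogate used for spots not above background. The files also hold yes or no calls deposited as other flags (well above background, saturated, outlier). The deposited table holds a ratio, found to be the processed intensity divided by the 75th percentile of its array: 99.2% to 99.9% of values above 1 lay within 2% of it. The study named GeneSpring for this step and did not state its settings. The table was used as an alternative.

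From the intensity, log2 was averaged over spots without outlier calls and the 75th percentile of the probes subtracted. A gene was its brightest probe (27224 names). Where 1 of the arrays compared was not well above background, the fold is a bound, given as "at least": the bright value over the higher of the dim value and the lowest value well above background there. Limits were 1.5-fold for ATO and 2-fold between controls. A bright local background is over 1.5 times the array median at any spot of the probe on either array compared. For probes printed in several copies it can rest on 1 copy. Neighbours are probes with 1 spot, well above background on both arrays compared, within 15 rows and columns. Their shares count probes, whereas the shares over all genes count genes and include bounds. Limma 3.58.1 (R 4.3.3) fitted treatment with cell line as a block, two-sided. Probe coordinates are on hg18 per the file headers, and no annotation of that build was used, so exons and UTRs were not assigned. Scripts were tested on simulated data.

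All 10 transporters are named. Of the lists, genes past 1.5-fold with the 3 highest and 3 lowest ratios in a line are named, and a fixed set of genes, of which 1 is not reported here. Others were named after their values were seen. The members and lists were chosen with earlier results of these data known. The alternative that subtracts the ratio of neighbouring probes was chosen after seeing the data. Precision is limited by the number of arrays.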

Additional observations from a re-analysis of the deposited data

Results flagged for a closer look

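The responses of 3 transporters had opposite signs in the lines, and the difference was not tested, as each line has 1 ratio. For SLC7A11 the log2 ratios were -0.36 (LNCaP) and 1.27 (PC3), a PC3 minus LNCaP difference of 1.63. For SLC7A5 they were 0.73 and -0.09, a difference of -0.82, and the PC3 sign turned with the 50th percentile. For SLC1A4 they were -0.07 and 0.71, a difference of 0.78, and the LNCaP sign turned with spike-in scaling and cyclic loess. The LNCaP values of SLC7A11 and SLC7A5 come from spots with a bright local background on the ATO array.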

How the results depend on the processing

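Scalings tried were the 50th percentile, spike-in probes, quantile, cyclic loess, normexp and the deposited table. The LNCaP count of transporters past 1.5-fold (1) was 2 with spike-in scaling and 0 with normexp, with bright local backgrounds left out (8 transporters left) and at 2-fold. The PC3 count (4) was 1 at 2-fold, 6 by the 50th percentile, 5 by cyclic loess and 3 by spike-in probes. The count between controls (3) was 6 by the 50th percentile, 5 by spike-in probes, 5 by cyclic loess and 4 by normexp. The share of all genes past a limit was not counted under these alternatives, so these counts have no such share beside them. At 2-fold only the limit changed, and fewer genes are left without bright backgrounds. The 50th percentile and spike-in scalings shift all log2 ratios of a comparison by the same amount. The cause of the other moves was not tested. Over all genes in PC3, the 50th percentile moved the median log2 ratio to 0.19 and spike-in scaling to -0.17, where the transporters' median was 0.51 and 0.15. Both PC3 and LNCaP medians of the transporters kept their sign under each alternative run, and no transporter past its limit changed sign. By limma 0 transporters passed under any of the 13 settings run, but of all genes 5 passed by the 50th percentile and 121 by spike-in probes, against 0. The count of 121 is not read as a result, because its smallest adjusted p by limma was 7.21e-49 on 1 residual degree of freedom. The limma fit pairs the arrays by cell line. A block by replicate number could not be fitted and no replicate could be left out, because each group holds 1 array.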

Other observations

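Of the 26 other carriers, 14 had a value on the control arrays, and 8 differed at least 2-fold between the lines, 4 in each direction, where 20.6% of all genes were higher and 19.0% lower in PC3. All 8 are named here after their values were seen. Higher in PC3 were SLC1A3 (at least 10.0-fold), a glutamate carrier, SLC6A6 (3.98-fold), the taurine carrier, SLC36A4 (2.90-fold), and SLC3A1 (at least 2.43-fold), a heavy chain related to SLC3A2. Higher in LNCaP were SLC7A8 (at least 9.36-fold), known as LAT2, SLC16A10 (at least 6.52-fold), which carries aromatic amino acids, SLC7A2 (4.06-fold), which carries arginine, and SLC43A2 (at least 3.23-fold), known as LAT4. SLC7A8 gave 412 units in LNCaP control, and its PC3 spots were not well above background.

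Of the genes of the amino acid response, 11 of 24 were past 2-fold between the control arrays, 1 higher and 10 lower in PC3, where 20.6% of all genes were higher and 19.0% lower. ASNS was 4.26-fold lower in PC3 control and ATF4 2.02-fold, while DDIT3 (log2 ratio 0.03) and TRIB3 (-0.20) were close to level.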
